A study of Mus musculus with 9 samples.

Results

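The 10 genes described here belong to the ATF4 amino acid response. Atf4 and Atf5 encode transcription factors, and beside them stand their partner Ddit3 and the regulators Trib3 and Sesn2. Chac1, Asns, Psat1, Phgdh and Aldh1l2 encode enzymes. By symbol, all 10 were found among the 54232 genes listed in the count files, and all had enough reads to be tested. The 10 were chosen from a view of these same 9 libraries, on their levels and fold changes, so their values are a description, and the p-values printed with them are rows of a fit over all genes that lend the choice no support.

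RNA was sequenced from mouse cortical neurons labelled wildtype and CD1, an outbred stock. The 9 libraries form 3 groups of 3 repeats. The library names give PDL for the control group, IKVAV for the group titled PA, and IKVAV plus PEDOT-S-OH for PA + PS2. A peptide amphiphile (PA) is a peptide with a fatty tail that assembles into fibres, IKVAV is a sequence of the matrix protein laminin, and PEDOT is a conducting polymer; PDL and PS2 are not spelled out. Under treatment, even the control libraries are labelled peptide amphiphile, which conflicts with the titles that the groups follow here. The protocols give no age, dose or time. Nothing states that repeats came from separate cultures, and the p-values then cover only the spread between these libraries, which may be technical.

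ATF4 is made mainly by translational control. When one of the kinases GCN2, PERK, PKR or HRI phosphorylates the initiation factor eIF2α, general translation slows while the Atf4 message is translated better, and ATF4 then binds genes for amino acid synthesis, import and tRNA charging. Starved amino acids act through GCN2 and misfolded protein in the endoplasmic reticulum acts through PERK, so the targets are often used as readouts of either stress. A message level does not measure ATF4 protein or eIF2α phosphorylation.

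ATF4 and its C/EBP partners bind composite sites whose core is written here as TGATGNAA or TGACGNAA. Both were searched on both strands in the RefSeq windows (GRCm38.p6) that run from 250 bases before to 50 bases after a gene's start. Windows were found for 9 of the 10 genes, 11 windows in all, and Aldh1l2 was not matched. TGATGNAA was present for Asns, Chac1 and Trib3, 3 of the 9, and in 3.97% of all 32851 windows. TGACGNAA was present for Chac1 alone among the 9, and in 1.59% of all windows. The sequences that hold the matches are printed 5′ to 3′ on the gene's strand, because Asns and Chac1 lay higher in PA + PS2 than in control and Trib3 did not. Capitals mark the matched letters, which for Trib3 and the second Chac1 match are the reverse complement of the core. The Asns stretch is chr6:7693214-7693243 on the minus strand, that of Chac1 is chr2:119350992-119351228 on the plus strand, and that of Trib3 is chr2:152344028-152344057 on the minus strand.

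Asns: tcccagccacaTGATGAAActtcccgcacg

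Chac1: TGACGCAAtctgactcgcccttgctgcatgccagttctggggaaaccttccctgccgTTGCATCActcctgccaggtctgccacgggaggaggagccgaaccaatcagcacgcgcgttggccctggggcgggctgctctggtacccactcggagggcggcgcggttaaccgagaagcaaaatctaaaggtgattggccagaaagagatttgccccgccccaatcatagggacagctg

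Trib3: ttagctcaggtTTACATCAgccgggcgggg

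The Asns match begins 23 bases before the RefSeq start. The Chac1 matches begin 250 and 193 bases before it, and that of Trib3 begins at base 15 after it. No match was found in the windows of Atf4, Atf5, Ddit3, Sesn2, Psat1 and Phgdh, which says only that these letters are not in those windows. A match describes letters and is not evidence of binding.

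In the control libraries the 10 genes ran over a wide range of levels. Per length of exon, Atf4 was the most abundant at 87.3 ± 6.33 RPKM (reads per kilobase of exon scaled to library size; SD, n = 3), followed by Asns at 43.0 ± 4.50 and Atf5 at 29.9 ± 2.13 RPKM. Psat1 stood at 19.7 ± 1.82 and Aldh1l2 at 10.03 ± 2.36 RPKM. Ddit3, Sesn2 and Chac1 lay close together at 8.35 ± 1.24, 7.78 ± 1.02 and 6.44 ± 1.01 RPKM. From Aldh1l2 to Chac1, the control libraries of each gene overlapped those of the next in that order. Phgdh at 1.59 ± 0.50 RPKM and Trib3 at 0.76 ± 0.04 RPKM had the lowest levels of the 10, with counts as low as 67 and 36 in a control library. Over all 9 libraries their lowest counts were 64 and 12, both in PA + PS2.

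In PA + PS2, 6 of the 10 genes lay above control in every library: Atf4, Atf5, Asns, Chac1, Aldh1l2 and Sesn2. Their excess ran from 1.25-fold for Sesn2 to 1.53-fold for Chac1. Psat1, Ddit3, Trib3 and Phgdh overlapped the control libraries. None of the 10 passed an adjusted p of 0.05 in the edgeR quasi-likelihood test, which called 0.0446% of 15712 genes in this comparison, all of them lower (0% higher). With the repeat number as a block, Atf4, Atf5, Chac1 and Aldh1l2 passed, all higher, against a background of 1.17% of genes called (0.115% higher and 1.06% lower). Groups that did not overlap, with PA + PS2 higher, made up 5.38% of all genes, and with PA + PS2 lower 6.54%.

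Total counts ran from 20746851 to 27237398 per library. All 10 neuronal markers were detected in every library, and their summed level was 6549 to 7186 CPM in control, 6403 to 7565 in PA and 6891 to 7592 in PA + PS2. Markers of several other cell types were lower in PA + PS2. The 10 fibroblast, pericyte and smooth muscle markers summed to 135 to 195 CPM in control, 89.3 to 159 in PA and 11.98 to 57.0 in PA + PS2, with Kcnj8 at 0 in 6 libraries and Lum in 1, and all 8 tested lay below 0 against control. The 6 markers of dividing cells summed to 84.01 to 203, 115 to 174 and 56.2 to 76.8 CPM, and the 8 of neural progenitors to 313 to 515, 382 to 455 and 259 to 284 CPM, with none at 0. The 10 astrocyte markers summed to 173 to 289, 231 to 269 and 177 to 217 CPM, with Gjb6 at 0 in all 9 libraries. The 7 microglia markers summed to 5.42 to 8.22, 4.85 to 7.33 and 3.35 to 4.28 CPM, with P2ry12 at 0 in 7 libraries and Tmem119 in 2, and 4 of the 5 tested lay below 0 against control. The 8 markers of the oligodendrocyte lineage summed to 59.9 to 85.6, 67.0 to 77.4 and 50.5 to 72.1 CPM, with none at 0. Of these 8, Olig1, Olig2 and Pdgfra were below control without overlap and Mbp above it, beside 6.54% and 5.38% of all genes. The 5 endothelial markers summed to 3.83 to 7.64, 3.53 to 5.32 and 1.58 to 3.32 CPM. Cldn5 was at 0 in 8 libraries, Cdh5 at 0 in some and Tek at 0 in PA + PS2 repeat 1. Only 2 of these 5 were tested against control, 1 above 0 and 1 below. The part of these cell types in the values of the 10 genes was not tested, and fewer cells of a type cannot be told apart from less RNA per cell.

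**Figure D1:**
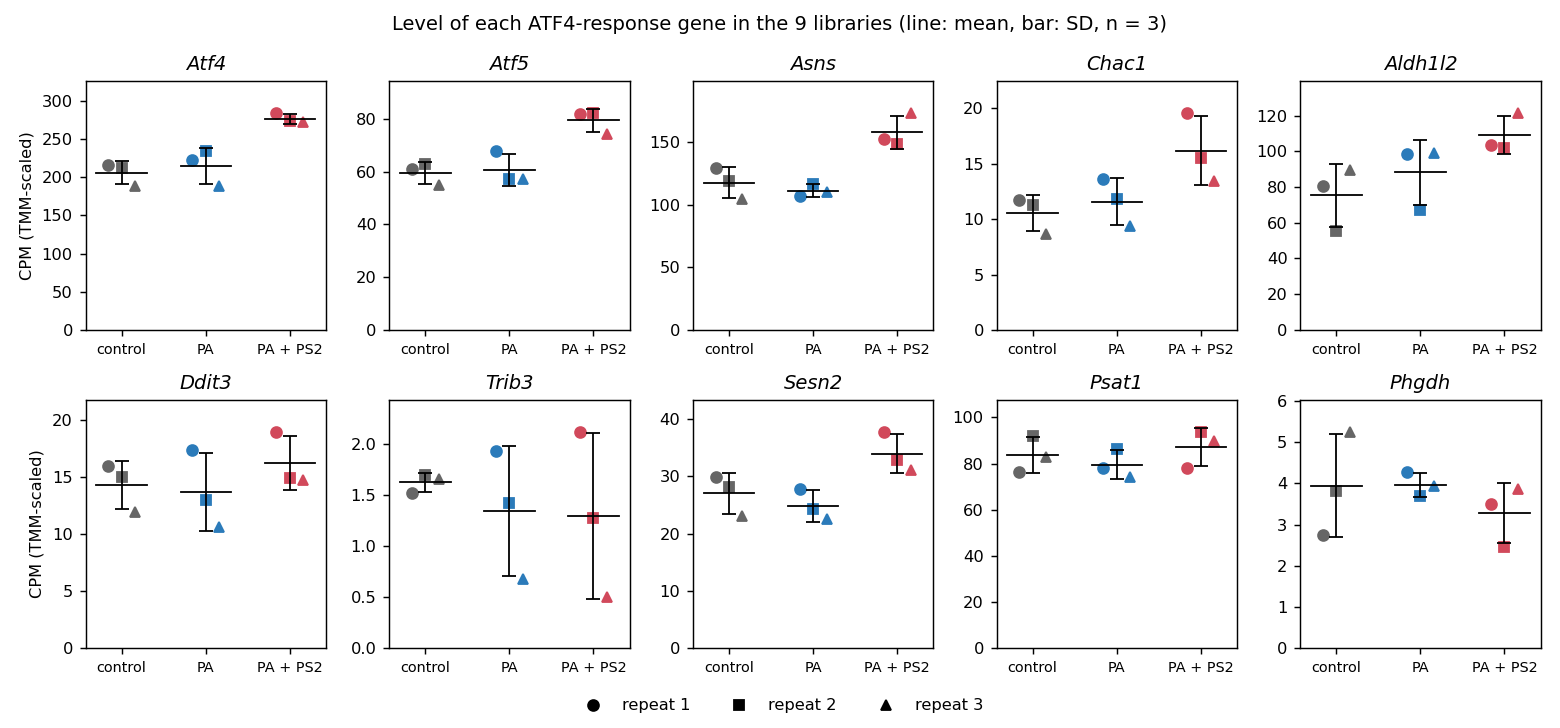
Level of each of the 10 genes in counts scaled to library size (CPM, y axis, from 0) in each of the 9 libraries, by group (x axis), with points for libraries and bars for group means ± SD. The 3 PA + PS2 libraries lie above all 6 others for Atf4, Atf5, Asns, Aldh1l2 and Sesn2, whereas Trib3 and Phgdh spread across the groups.

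Atf4, which encodes the factor itself, stood at 216, 212 and 189 CPM in control repeats 1, 2 and 3, at 222, 234 and 189 CPM in PA, and at 283, 274 and 272 CPM in PA + PS2. The PA + PS2 libraries were the 3 highest, and PA overlapped control. Its log2 fold change was 0.43 ± 0.10 (SE) against control (edgeR adjusted p = 0.161). With repeats blocked it was 0.43 ± 0.08 (edgeR adjusted p = 0.0299). Against PA it was 0.36 ± 0.10 (edgeR adjusted p = 0.37).

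Atf5 encodes a factor related to ATF4 that is likewise controlled at translation, and that ATF4 and CHOP can switch on. It stood at 61.1, 62.95 and 54.9 CPM in control, 67.7, 57.3 and 57.2 CPM in PA, and 81.8, 82.1 and 74.5 CPM in PA + PS2. Again the PA + PS2 libraries did not overlap either other group. Against control its log2 fold change was 0.41 ± 0.10 (edgeR adjusted p = 0.178, or 0.0371 once repeats were blocked), and 0.39 ± 0.10 against PA (adjusted p = 0.34). Its exons share 82 bases with Nup62 and Il4i1 on the opposite strand, and whether the counting used strand is not given in the sources used here.

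Asns makes asparagine from aspartate and is a standard ATF4 target. It stood at 129, 119 and 105 CPM in control, 107, 117 and 110.0 CPM in PA, and 152, 148 and 173 CPM in PA + PS2, the latter again above all 6 others. Asns had a log2 fold change of 0.42 ± 0.10 against control (edgeR adjusted p = 0.173, or 0.0727 once repeats were blocked) and 0.50 ± 0.10 against PA (adjusted p = 0.237). Asns had the highest log2 fold change of the 10 against PA.

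Chac1 breaks down glutathione and is switched on by ATF4 with ATF3 and CHOP. It stood at 11.7, 11.3 and 8.65 CPM in control, 13.6, 11.8 and 9.40 CPM in PA, and 19.5, 15.5 and 13.5 CPM in PA + PS2. PA + PS2 cleared control in all libraries but not PA, whose repeat 1 reached the level of PA + PS2 repeat 3. Chac1 had a log2 fold change of 0.62 ± 0.19 against control (edgeR adjusted p = 0.355) and 0.61 ± 0.12 once repeats were blocked (adjusted p = 0.0348). Within each group repeat 1 was highest and repeat 3 lowest.

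Aldh1l2, the mitochondrial enzyme that oxidises formyl-tetrahydrofolate, stood at 80.5, 55.5 and 89.7 CPM in control, 98.3, 66.8 and 99.2 CPM in PA, and 104, 101.7 and 121 CPM in PA + PS2. Repeat 2 was well below the others in control and PA but not in PA + PS2. The log2 fold change was 0.53 ± 0.19 against control (edgeR adjusted p = 0.496) and 0.56 ± 0.10 once repeats were blocked (adjusted p = 0.0302). Aldh1l2 shares 1056 exon bases with D10Wsu102e on the opposite strand, which stood at 103 ± 29.6, 132 ± 37.4 and 93.3 ± 9.97 CPM (SD, n = 3) in control, PA and PA + PS2, so its count is uncertain.

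Sesn2 encodes a sensor of leucine that restrains the growth kinase complex mTORC1. It stood at 29.9, 28.04 and 23.1 CPM in control, 27.8, 24.2 and 22.5 CPM in PA, and 37.7, 32.9 and 31.1 CPM in PA + PS2. The PA + PS2 libraries were the 3 highest. The log2 fold change was 0.33 ± 0.13 against control (edgeR adjusted p = 0.708) and 0.45 ± 0.13 against PA (adjusted p = 0.421).

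Ddit3 encodes CHOP, a factor that ATF4 switches on and that promotes cell death under lasting stress. It stood at 15.98, 14.999 and 11.9 CPM in control, 17.4, 13.0 and 10.6 CPM in PA, and 18.95, 14.96 and 14.8 CPM in PA + PS2, with all groups overlapping. The log2 fold change was 0.18 ± 0.19 against control (edgeR adjusted p = 1). Its exons share 68 bases with Mars and 13 with Gm4189 on the opposite strand, and a second Ddit3 identifier was at 0 counts in every library.

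Trib3, a pseudokinase that binds ATF4 and CHOP and dampens them, was the scarcest of the 10. It stood at 1.52, 1.70 and 1.66 CPM in control, 1.93, 1.42 and 0.68 CPM in PA, and 2.12, 1.27 and 0.50 CPM in PA + PS2. In both treated groups repeat 1 was above and repeat 3 well below the control libraries. The log2 fold change was −0.34 ± 0.48 against control (edgeR adjusted p = 1), and the repeats did not share a direction.

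Psat1 and Phgdh encode enzymes of serine synthesis from glucose, and for both genes PA + PS2 overlapped control. Psat1 stood at 76.5, 91.9 and 82.9 CPM in control, 78.1, 86.2 and 74.3 CPM in PA, and 78.1, 93.6 and 89.9 CPM in PA + PS2, a log2 fold change of 0.06 ± 0.11 against control (edgeR adjusted p = 1). Phgdh, abundant in astrocytes and progenitors, stood at 2.75, 3.83 and 5.25 CPM in control, 4.27, 3.69 and 3.95 CPM in PA, and 3.51, 2.47 and 3.87 CPM in PA + PS2. Its log2 fold change was −0.26 ± 0.27 against control (edgeR adjusted p = 1). Phgdh has stretches of at least 95% identity with 11 other annotated genes. In 7 of them, all processed pseudogenes, the match runs over 1594 to 1608 bases at 95.3% to 98.7% identity, and in the other 4 it is shorter, from 118 to 754 bases. The 11 together held 7 to 34 counts against 64 to 114 for Phgdh in a library, so its level is uncertain.

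**Figure D2:**
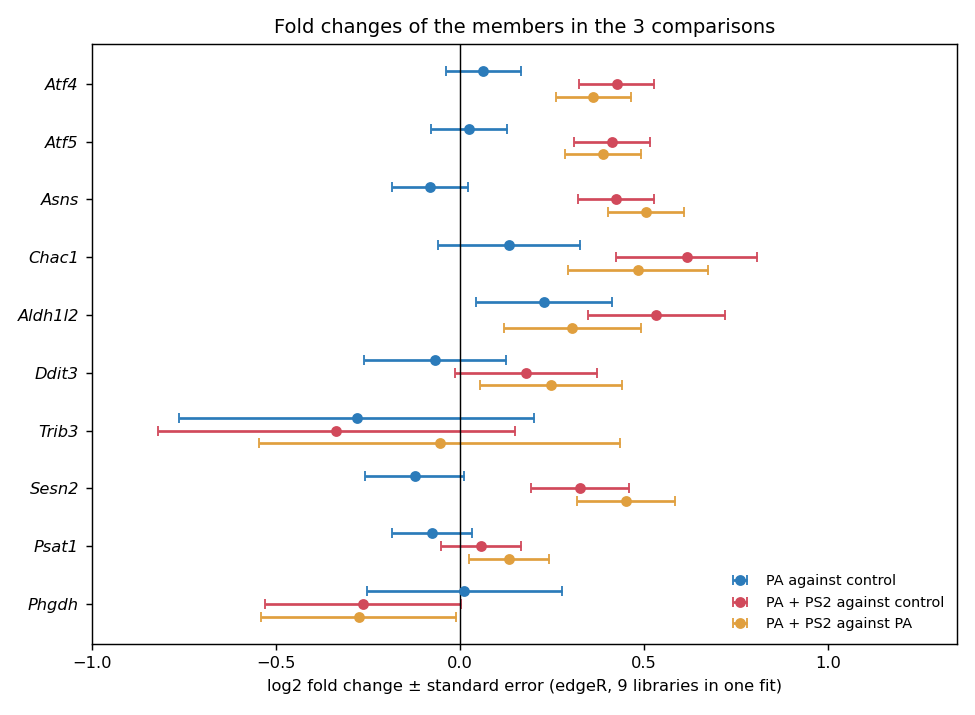
Log2 fold change of each gene (points) with its standard error (bars) in the 3 comparisons, from the edgeR fit to all 9 libraries. Chac1 has the highest value against control at 0.62, and the values of PA against control lie between −0.28 and 0.23.

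In PA the log2 fold changes of the 10 genes against control ran from −0.28 for Trib3 to 0.23 for Aldh1l2. Of these, 5 lay above and 5 below 0, with a median of −0.03, beside −0.01 over all genes tested. No gene of the 10 passed, with or without the repeat block, and edgeR called 0% of all genes by either fit. At an unadjusted p under 0.05 it called 1.22% of all genes, 192 of them, and DESeq2 called 0 at an adjusted p under 0.05. None of the 10 separated PA from control, where 1.97% of all genes did so with PA higher and 2.07% with PA lower.

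The comparisons of PA + PS2 share libraries with each other, so their values stand side by side and are not independent. Against control, 8 of the 10 lay above 0 where the median log2 fold change was 0.37 (0.00 over all genes), and 6 had an unadjusted p under 0.05, beside 5.63% of all genes. Against PA, 8 lay above 0 with a median of 0.33 (0.01 over all genes), and 5 had an unadjusted p under 0.05, beside 5.61% of all genes. No gene of the 10 passed against PA, where edgeR called 0% of all genes, although 881 had an unadjusted p under 0.05 and DESeq2 called 121 genes. The groups did not overlap, with PA + PS2 higher than PA, for Atf4, Atf5, Asns, Aldh1l2 and Sesn2, beside 3.32% of all genes, with 6.32% lower.

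Within repeat numbers, 7 of the 10 were higher in PA + PS2 than in control in all 3 repeats, beside 15.5% of all genes, and none was lower in all 3, beside 15.5%. Psat1 was one of the 7, with differences in log2 CPM of only 0.03, 0.03 and 0.12. Atf5 was the most even at 0.42, 0.38 and 0.44, whereas Asns ran from 0.23 to 0.72 and Aldh1l2 from 0.37 to 0.87. Against PA, 7 were higher in all 3 repeats and Phgdh was lower, beside 13% and 14% of all genes. Sesn2 was even there, at 0.44, 0.44 and 0.47. PA was higher than control in all 3 repeats for Aldh1l2 and Chac1, beside 9.77% of genes, and lower for Sesn2, beside 13.6%. Trib3 changed direction between repeats, at 0.46, −0.39 and −1.58 for PA + PS2 less control.

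**Figure D3:**
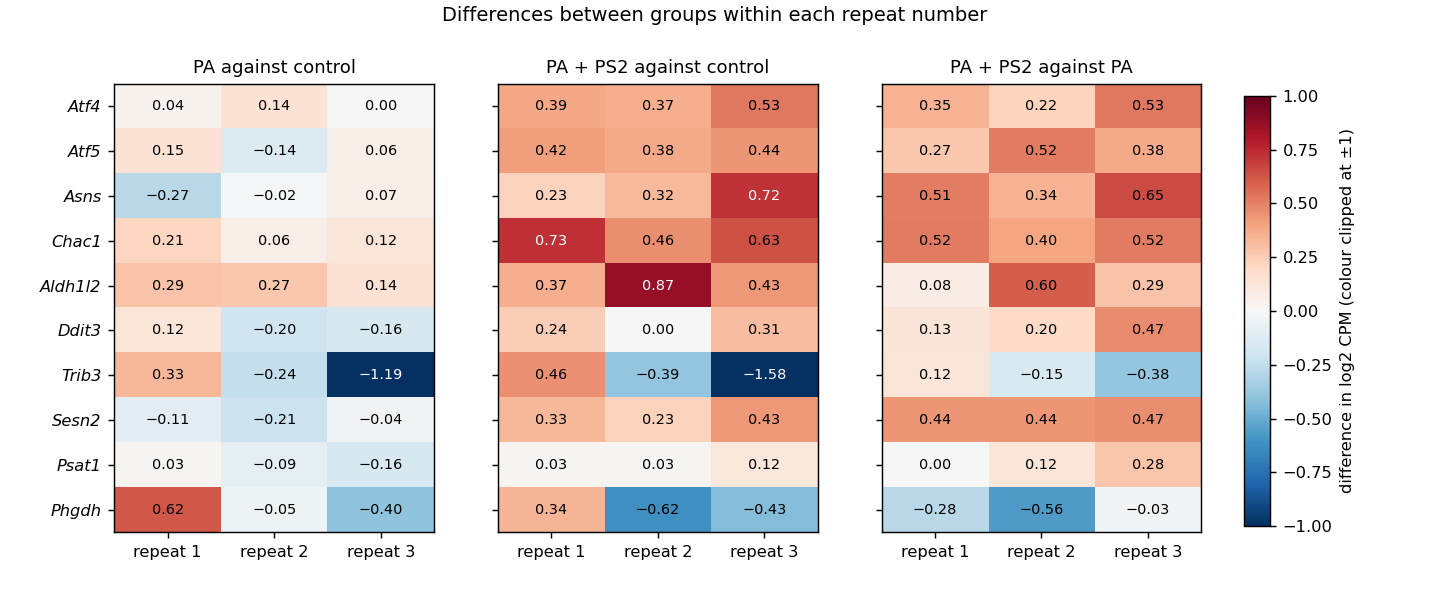
Difference in log2 CPM between groups within each repeat number, for the 10 genes (rows) and 3 repeats (columns) in each comparison, with the colour clipped at ±1. Atf4, Atf5, Asns, Chac1, Aldh1l2 and Sesn2 are above 0 in every repeat of both PA + PS2 comparisons, and Trib3 reaches −1.58.

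Across the 9 libraries, Chac1, Atf5, Asns and Sesn2 tracked Atf4, with Pearson r of 0.91, 0.90, 0.87 and 0.86 on log2 CPM. Ddit3 followed at 0.66, Psat1 at 0.41 and Aldh1l2 at 0.39, while Trib3 stood at −0.03 and Phgdh at −0.52. These are descriptions over 9 libraries that fall into 3 groups and share repeat numbers, so a difference between groups by itself can give a high r. Of the 10 genes, 5 were highest in PA + PS2 repeat 1, 2 in repeat 2 and 2 in repeat 3, and 4 were lowest in PA repeat 3.

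**Figure D4:**
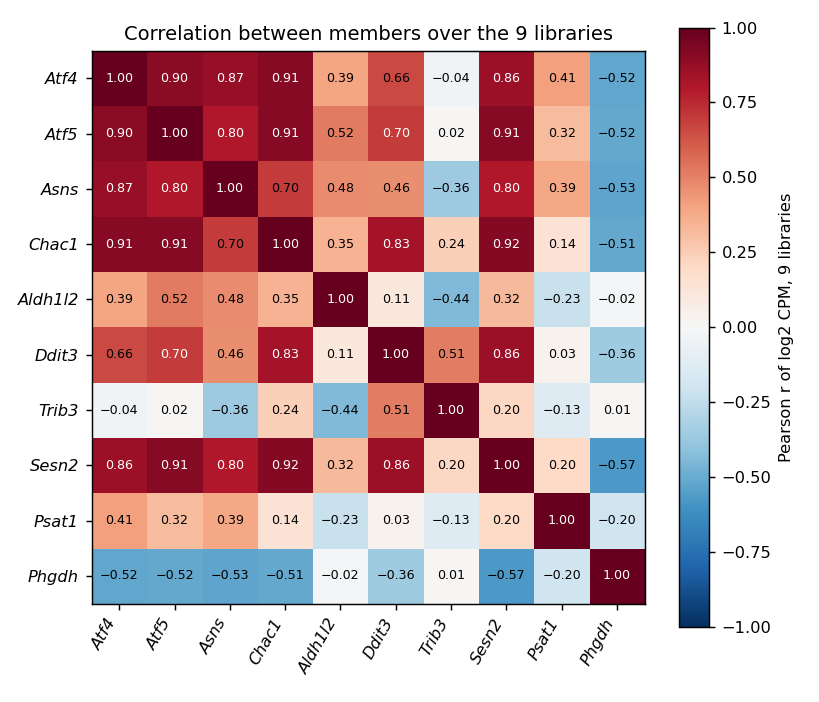
Pearson r between the log2 CPM of each pair of the 10 genes over the 9 libraries. Atf5, Asns, Chac1 and Sesn2 have values of 0.86 to 0.91 with Atf4, and Phgdh is negative with Atf4 at −0.52. Ddit3 stands at 0.86 with Sesn2 and 0.83 with Chac1, above the 0.70 of Asns with Chac1.

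The protein-coding genes of at least 5 CPM whose pattern was most like the mean of the 10, out of 10326, were Lysmd4 (r = 0.94), Rgs19 (0.93), Slc30a6 (0.92), Tfap4 (0.90), Aen (0.89), Prdm8 (0.89), Rassf7 (0.89) and Lpin1 (0.89), over 9 libraries. None of these 8 is in the pathway lists below. Rgs19 shows how small such a pattern can be, at 19.7 to 21.2 CPM in control and 21.5 to 22.5 CPM in PA + PS2. In the lists, the best ranked were Shmt2 at 12, Mars1 at 14, Herpud1 at 16, Gpt2 at 19 and Bbc3 at 26. Other list genes ranked far lower, such as Slc38a2 at 5797, Cebpg at 6183 and Dnajc3 at 10299 of 10326. The mean of the 10 was taken over log2 CPM centred for each gene but not scaled to its spread. Genes that varied more between libraries therefore weighed more in it. Trib3, the scarcest of the 10, varied most on this scale. Its part in the r values and ranks was not tested.

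The other genes of the pathway differed by list, and none in the pathway lists passed the edgeR test in PA + PS2 against control. Amino acid transporters lay highest among these lists: all 11 tested were above 0 (median log2 fold change 0.33). Of the 11, 6 lay above control without overlap, beside 5.38% of all genes. Slc7a5, the large neutral amino acid carrier, stood at 271 ± 9.91 CPM against 188 ± 13.7 in control (SD, n = 3), a log2 fold change of 0.53 ± 0.11 (edgeR adjusted p = 0.108, or 0.0229 once repeats were blocked). Slc7a1, the arginine and lysine carrier, stood at 164 ± 4.06 against 121 ± 11.5 CPM (log2 fold change 0.43 ± 0.10; edgeR adjusted p = 0.128; 0.0229 with the block). Slc3a2, the heavy chain that partners Slc7a5, passed with the block as well (adjusted p = 0.049). The glycine carrier Slc6a9 stood at 18.3 ± 1.33 against 12.6 ± 2.43 CPM (edgeR adjusted p = 0.265; 0.0867 with the block). Slc38a2, often used as an ATF4 target, stood at 248 ± 0.54 against 248 ± 21.9 CPM.

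The cytosolic tRNA synthetases, which charge tRNA with amino acids, lay above 0 for 19 of 20 genes, with a median of 0.16. Of the 20, 11 lay above control without overlap, beside 5.38% of all genes. Cars, the cysteine enzyme, stood at 115 ± 4.89 against 82.8 ± 11.2 CPM, a log2 fold change of 0.48 ± 0.12 (edgeR adjusted p = 0.178; 0.0255 with the block). Nars and Iars stood at 0.32 ± 0.08 and 0.30 ± 0.08. Of 13 synthetases with a promoter window, TGATGNAA was present in 5: Aars, Gars, Iars, Tars and Yars.

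Among 16 other ATF4 targets tested the median was 0.09, with 5 above and 1 below control without overlap, beside 5.38% and 6.54% of all genes. Bbc3, which encodes the death protein PUMA, stood at 32.9 ± 1.99 against 22.6 ± 2.89 CPM (log2 fold change 0.54 ± 0.15; edgeR adjusted p = 0.234; 0.0311 with the block). Cth, which makes cysteine from cystathionine, was the 1 below, at 0.63 against 1.51 CPM. Fgf21 and Gdf15, secreted stress factors, had too few reads to be tested. The serine and one-carbon enzymes had a median of 0.08, with Shmt2 at 0.29 ± 0.13 and Psph at 0.32 ± 0.14, while Aldh1l1, the cytosolic relative of Aldh1l2 and an astrocyte marker, stood at −0.84 ± 0.33 with overlapping groups. Pycr1, an enzyme of proline synthesis in the target list, stood at 0.22 ± 0.14.

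The kinases and phosphatases that act on eIF2α had a median of 0.02. Eif2ak3, which encodes PERK, stood at 0.19 ± 0.10, and Ppp1r15b, which helps remove the phosphate, at 0.15 ± 0.09. Of the 9 tested, these 2 lay above control without overlap and 0 below, beside 5.38% and 6.54% of all genes. The scarce Eif2ak2 stood at −0.77 ± 0.39. The partners of ATF4 had a median of −0.01, with Cebpg at 0.02 ± 0.13 and the scarce Nfe2l2 and Nupr1 at −1.07 ± 0.39 and −0.43 ± 0.45. The ATF6 and XBP1 arms of the unfolded protein response handle misfolded protein in the endoplasmic reticulum. The 19 genes of this list had a median of −0.02, with 4 above 0. Without overlap, 1 lay above control and 3 below, beside 5.38% and 6.54% of all genes. Herpud1 stood at 0.17 ± 0.11, and the co-chaperones Dnajb9 and Dnajc3 at 0.11 ± 0.19 and −0.25 ± 0.11. The ER stress element bound by ATF6 (CCAAT, 9 bases, then CCACG, on either strand) was in the windows of 8 of 17 genes in that list, in none of the 9 matched ATF4 genes, and in 0.119% of all windows. Mitochondrial stress genes and relatives of the 10 had medians of 0.04 and 0.00. Oma1, the mitochondrial protease that cuts the stress messenger DELE1, did not overlap control at 6.94 against 4.84 CPM, while Dele1 and Hspa9 stood at −0.12 ± 0.10 and 0.04 ± 0.10. Sesn1, a relative of Sesn2, did not overlap control at 0.23 ± 0.09, and Trib2, a relative of Trib3, stood at 0.02 ± 0.09.

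**Figure D5:**
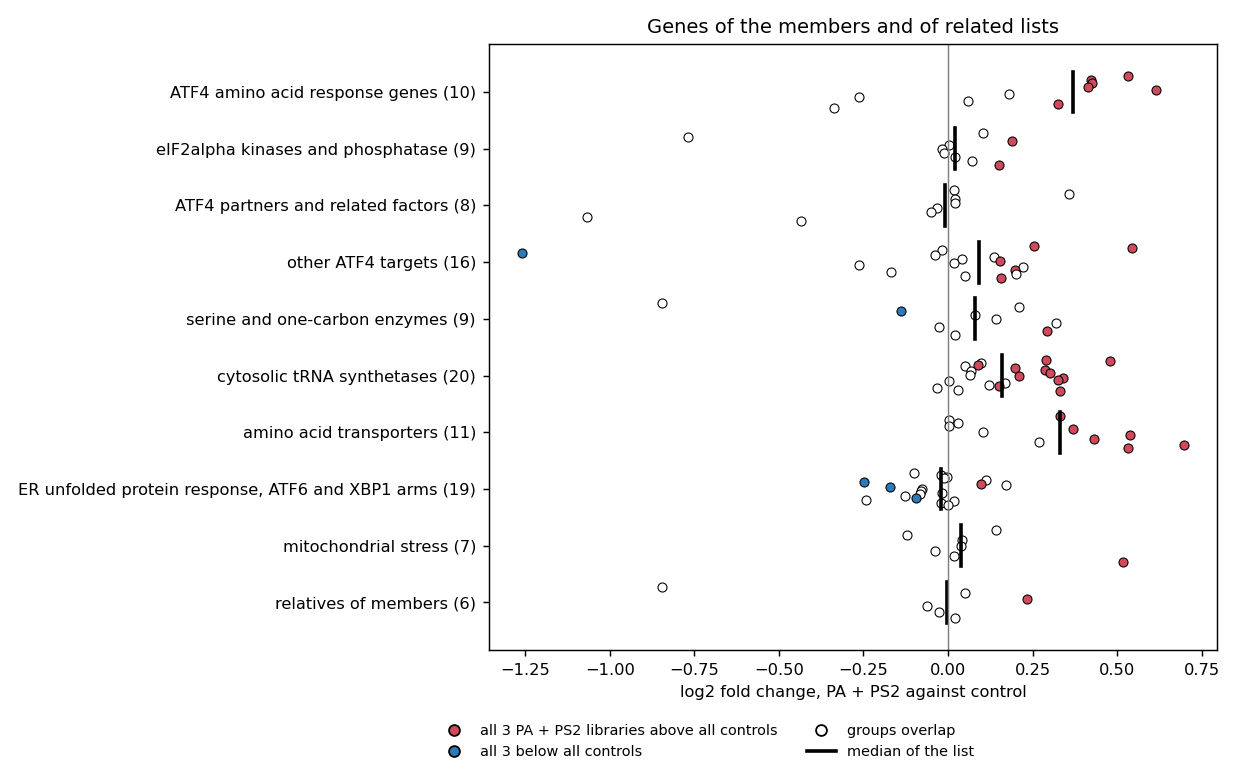
Log2 fold change of PA + PS2 against control (x axis) for the genes of each list (points, with the number tested), with bars for list medians and colour for groups that do not overlap. Amino acid transporters have a median of 0.33 and tRNA synthetases 0.16, while the unfolded protein response list centres at −0.02.

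The repeat-block fit called 18 genes higher in PA + PS2 than in control, 0.115% of the 15712 tested, and 166 lower (1.06%). Atf4, Atf5, Chac1 and Aldh1l2 are 4 of the 18, or 22.2%, and 40% of the 10. The 10 were chosen with fold changes of these same libraries known, so these shares are a description. Another 5 of the 18 are in the pathway lists: Slc7a5, Slc7a1, Slc3a2, Cars and Bbc3. The other 9 are Fst, Lyz2, Hs6st2, 6330403K07Rik, Gpnmb, Acod1, Slc11a1, Sla and Mag. Of these, Lyz2 and Gpnmb are microglial and macrophage genes, with log2 fold changes of 2.35 and 1.10 in this fit. Acod1 and Slc11a1 are macrophage genes as well, at 1.70 and 2.05. The summed microglia markers above were lower in the same comparison.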

How the data were processed

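The deposited files hold raw read counts per Ensembl gene, 1 file per library, listing 54232 genes. Per the submitters' processing notes, the tools were STAR 2.7.5, cutadapt 4.2, DESeq2 1.14.1 and HTSeq 2.0.2, with build mm10; the annotation release and strand setting are not given in the sources used here. Symbols and exon lengths came from GENCODE M21, which matched 54165 identifiers. The molecule is labelled polyA RNA, but the named kit takes total RNA.

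All 9 libraries were fitted together with edgeR 4.0.16 in R 4.3.3 (quasi-likelihood F test, 2-sided, trimmed mean of M values scaling, filterByExpr at a count of at least 10 and a total of at least 15, 6 residual degrees of freedom). This left 15712 genes with 99.9% of the counts, and p-values were adjusted by Benjamini and Hochberg over them. Standard errors are the size of the log2 fold change divided by the root of F. CPM use the scaled library sizes; log2 CPM add a prior count of 2. RPKM divide by the exon length in GENCODE. The test was checked on simulated data. Near-identical copies were found with BLAST 2.17.0.

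The 10 genes, the pathway and marker lists and the rules were chosen with earlier results of these data known. Genes named outside the 10 are the 3 of each pathway list with the smallest p, and the 8 protein-coding genes most like the mean of the 10. Fgf21 and Gdf15 are named as not tested, and Aars, Gars, Tars and Yars for a motif. Named among the markers are Kcnj8, Lum, Gjb6, P2ry12, Tmem119, Cldn5, Cdh5, Tek, Olig1, Olig2, Pdgfra and Mbp. All of these, Slc3a2, Slc38a2, Gpt2, Mars1 and the genes called higher with the block were named with their values known.

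The groups share repeat numbers 1 to 3. Deviations from group means, correlated across genes between libraries of the same number, were 0.42, 0.37 and 0.28 for PA and control and 0.18, 0.22 and 0.13 for PA + PS2 and control, all over 0.1, so a fit with the number as a block (4 residual degrees of freedom) stands beside results whose call it changes. For PA + PS2 and PA they were 0.015, 0.29 and 0.30, so there the block appears only in the closing section. This pairing comes from the data, since no label explains the numbers. Correlations between libraries of different numbers were not set beside these values. The choice of where to block therefore rests on same-number values and the cut of 0.1. Alternatives were DESeq2 1.42.0, other scalings, no filter on low counts, fits to 6 libraries and each library left out.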

Additional observations from a re-analysis of the deposited data

How the results depend on the processing

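Of 540 values of the 10 genes under the alternatives, 508 kept their direction and side of the threshold. Another 11 passed where the main test did not, 21 changed sign without being called in either, and 0 changed sign with a call. The main test called none of the 10, so no call could be lost, and the values that kept their side stayed uncalled. For PA + PS2 against control the test called 7 genes. It called 17 with DESeq2 size factors, 2 with library totals alone, 365 without the filter on low counts, 208 with DESeq2, 184 with the replicate block and 28 with only the 6 libraries compared. Of the 10 genes, 2 passed without the filter (Atf4 and Aldh1l2), 3 with DESeq2 (Atf4, Atf5 and Asns) and 4 with the replicate block. For PA + PS2 against PA it called 0 genes, 330 without the filter, 121 with DESeq2 and 57 with the replicate block; of the 10, 1 passed (Asns) without the filter and 1 (Asns) with DESeq2. For PA against control it called 0 genes, and 23 without the filter. The cause of these differences was not tested.

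Leaving out libraries gave 0 to 175 genes for PA + PS2 against control and 0 to 37 against PA, the highest of each without control repeat 1 (against control it was 125 without repeat 1 of every group). Against control the count was 0 without control repeat 2, control repeat 3, PA + PS2 repeat 1, all of repeat 2 or all of repeat 3. It was 1 without PA + PS2 repeat 3, 2 without PA + PS2 repeat 2, and 18, 8 and 10 without PA repeats 1, 2 and 3. In each comparison 0 of the 10 genes passed in every such fit. The median of the 10 then ran from 0.28 to 0.42 against control, from 0.30 to 0.42 against PA, and from −0.08 to 0.06 for PA against control. Trib3 changed sign in 2 fits of PA + PS2 against control, at 0.05 and 0.07, both without its repeat 3.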
